A study of Mus musculus with 18 samples.

Results

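Tumor cells sorted as high for both CD29 and CD24 (CD29H CD24H), the fraction that the study is known to have identified as tumor-initiating, were compared with normal mammary cells sorted as CD29 high and CD24 positive (CD29H CD24P), the gate that holds normal basal cells. Both sets of arrays were chosen by their titles, and together they are 5 of the 18 one-colour Affymetrix mouse arrays of the series. The tumor group has n = 3, 1 array each of mouse mammary tumors 1, 2 and 7, and the normal group has n = 2, the arrays of normal preparations 1 and 2. The comparison asks how the tumor-initiating fraction differs from the normal cells sorted for the same high CD29. Tumors 1 and 2 are labelled as transplant generation 1, and no generation is given for tumor 7. The labels give no strain, genotype, age or treatment; the study is known to have used transplanted tumors that arose from mammary epithelium without Trp53, and Trp53 itself is not analysed here. How many tumors each fraction starts on transplantation was not analysed here. Whether the normal preparations came from separate or pooled animals is not stated, so the p-values reflect only how far these samples scatter, which may be technical. RNA of all arrays was amplified in 2 rounds before labelling.

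The mammary duct is a tube of luminal cells wrapped in basal cells. Most basal cells are myoepithelial: they hold the actin and smooth muscle myosin that squeeze milk out when oxytocin binds its receptor, they lay down the laminins and collagens of the basement membrane, and they carry keratins 5 and 14 and the transcription factor p63. Luminal cells carry keratins 8, 18 and 19, and their progenitors use the transcription factors Elf5, Ehf and Foxa1 or Gata3 to become milk-making or hormone-sensing cells. CD29 is the integrin beta1 chain, which anchors cells to the basement membrane and is high on normal basal cells, a gate that also holds the normal mammary stem cells. CD24 is a small surface glycoprotein that is higher on luminal than on basal cells.

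Levels are log2(signal + 32), where a signal of 0 stands at 5, and are given in the order of tumors 1, 2 and 7 and then of normal preparations 1 and 2. Differences are tumor minus normal on this scale, where changes of dim genes come out smaller than they are, with the standard error of the fit after ±, and adjusted p-values are limma's after Benjamini-Hochberg adjustment over all 10916 genes tested. The normal arrays correlated at 0.983 with each other, the tumor arrays at 0.827 to 0.894 among themselves and at 0.764 to 0.831 with the normal ones, in Pearson's r over the genes tested. A sign of RNA quality moved with the groups. The signal ratio of probe sets at the 3' and 5' ends of the actin control was 72.5, 23.2 and 51.5 in tumors 1, 2 and 7 and 7.09 and 3.08 in the normal arrays, and for the Gapdh control it was 31.3, 12.7 and 22.3 against 8.94 and 4.78. On these 5 arrays the ratio and the group cannot be told apart. With the actin ratio as a covariate 0 genes passed in limma (610 had an unadjusted p below 0.05). In a fit of all 17 sorted-cell arrays with that covariate 100 genes passed, 87 of them the same genes in the same direction as below, and 570 of the 577 genes that passed below kept their sign.

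The sort markers were read first. Itgb1, which encodes CD29, lay at 10.78, 9.02 and 12.58 in the tumor arrays and at 10.46 and 10.94 in the normal ones, a difference of 0.10 ± 0.94 (adjusted p = 0.957). Tumor 2 was below and tumor 7 above both normal arrays, so the groups overlapped. The sign turned with the processing, to −0.06 when the arrays were shifted to equal medians and to −0.80 without tumor 7. Cd24a lay at 15.43, 15.04 and 15.19 against 14.14 and 13.89, a difference of 1.20 ± 0.24 (adjusted p = 0.0373), with every tumor array above both normal ones. The tumor gate was set at high and the normal gate at positive CD24 staining, so a higher Cd24a is what the sorting itself asks for. Its other probe sets differed by 0.99 and 1.09 and did not pass, and after the median shift it did not pass (1.05, adjusted p = 0.0666).

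The normal arrays carried the defining basal genes: Krt14 stood at 14.13 and 14.20, Krt5 at 13.74 and 13.76, Trp63 at 13.35 and 13.10 and Acta2 at 15.38 and 15.23. They also carried Krt8, a luminal keratin, at 14.35 and 14.20, against 15.46 and 15.49 in the normal luminal gate (CD29 positive, CD24 high). The tumor arrays differed among themselves in the basal keratins. Krt14 stood at 11.84, 12.15 and 8.34 and Krt5 at 11.54, 11.15 and 6.67, lowest in tumor 7 and below both normal arrays in every tumor.

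Of the 10916 genes tested, 577 (5.29%) passed the threshold of an adjusted p below 0.05, 264 higher (2.42%) and 313 lower (2.87%) in the tumor cells. The median difference of all genes was 0.03, 51.3% of them were positive, and 2708 had an unadjusted p below 0.05 in limma. All 577 had arrays that did not overlap between the groups, as did 47.7% of all genes. Of these, 252 of the lower and 180 of the higher genes differed by at least 2 log2 units, and 39 and 23 by at least 4. Adjusted p-values of a gene's other probe sets come from a fit of each probe set by itself. Of the higher genes 138 had another probe set bright enough to be tested, and in 115 of them all such probe sets had the same sign. Of the lower genes it was 124 of 143. Another probe set passed in the same direction in 33 of the 138 higher and 76 of the 143 lower genes. After a median shift, which moved the median of all genes to −0.13, the split was 208 higher and 418 lower. The counts rest on both normal arrays. Without normal array 1 only 5 genes passed (Ehf, Wfdc18, Rpl27a, Il17b and Tenm2), and without normal array 2 only 3 (Ehf, Il17b and Tenm2), the lone normal array then being assumed to vary like the tumor arrays. Without tumor 7, 1462 genes passed, and without tumor 1, 272.

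**Figure D1:**
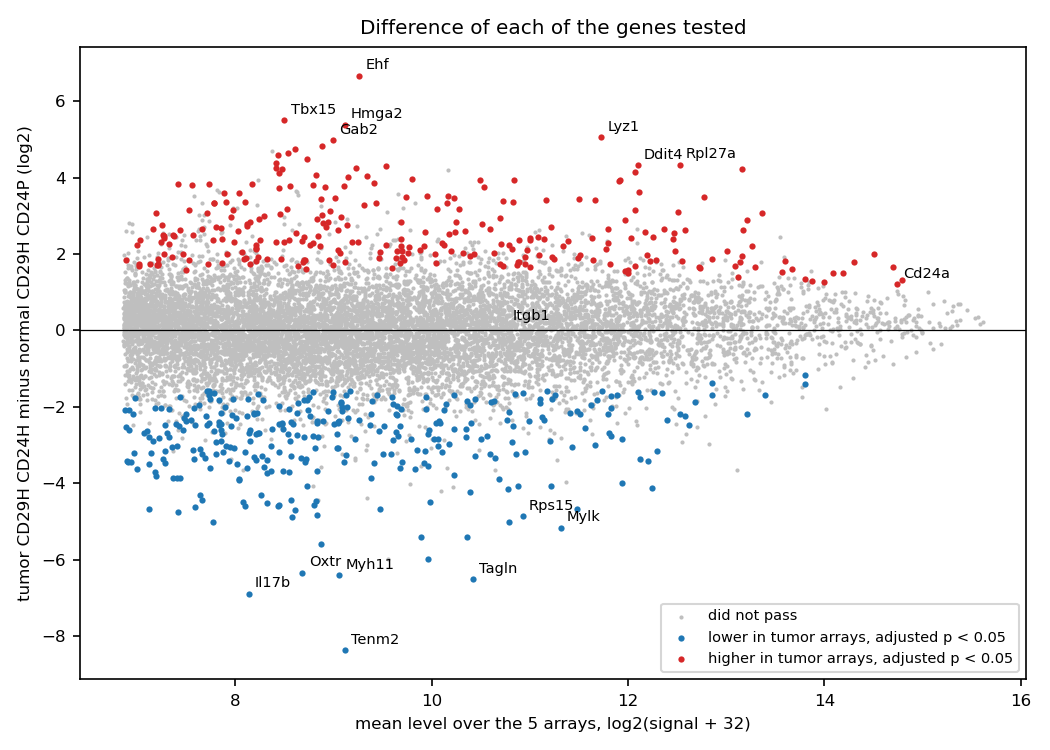
Difference of each gene (vertical axis, tumor CD29H CD24H minus normal CD29H CD24P, log2) against its mean level over the 5 arrays (horizontal axis, log2(signal + 32)); red and blue points passed an adjusted p below 0.05. The lower genes reach −8.37 (Tenm2) and the higher ones 6.66 (Ehf), and Itgb1 lies at 0.10.

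Genes of the contractile apparatus were lower in the tumor-initiating fraction, the largest shift of any list. Of 17 tested members of the myoepithelial contractile list, 10 fell and 0 rose, against 2.87% and 2.42% of all genes. All 17 differences were negative, with a median of −3.66 against 0.03 over all genes, of which 51.3% were positive. Tagln, the actin-binding protein transgelin, stood at 8.56, 8.45 and 6.42 in the tumor arrays and 14.14 and 14.51 in the normal ones, a difference of −6.51 ± 0.68 (adjusted p = 0.00844). The smooth muscle myosin heavy chain Myh11 stood at 8.14, 6.28 and 5.09 against 12.74 and 13.05 (−6.39 ± 0.82, adjusted p = 0.0101). For Oxtr, the oxytocin receptor, the levels were 7.11, 6.08 and 5.26 against 12.59 and 12.38 (−6.34 ± 0.56, adjusted p = 0.00507). In each of these genes every tumor array lay over 4 log2 units below the lower normal array, and tumor 7 was the lowest. Mylk, the kinase that switches myosin on, stood at 10.31, 9.43 and 8.02 against 14.55 and 14.27 (−5.16 ± 0.65, adjusted p = 0.00989), and a second of its probe sets fell by 4.63. Myl9, the regulatory light chain that Mylk phosphorylates, stood at 9.39, 7.88 and 5.43 against 13.48 and 13.62 (−5.99 ± 1.03, adjusted p = 0.0242). The tumors were far apart in Myl9, with tumor 1 the highest and tumor 7 near a signal of 0. Tropomyosin 2 (Tpm2) stood at 11.30, 10.44 and 10.05 against 14.74 and 14.70, a difference of −4.12 ± 0.43 (adjusted p = 0.00844).

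Smaller falls that passed were those of Smtn (−3.08), Synm (−2.69), Lmod1 (−2.07) and Tpm1 (−1.95). Smooth muscle actin (Acta2) did not pass: it stood at 13.67, 11.53 and 9.75 against 15.38 and 15.23, a difference of −3.66 ± 0.99 (adjusted p = 0.0818). Calponin (Cnn1) stood at 10.61, 5.67 and 5.21 against 13.04 and 13.26, high in tumor 1 and near a signal of 0 in tumors 2 and 7, and did not pass either (−5.99 ± 1.49, adjusted p = 0.0677). Cald1 and Lpp, which are also made by non-muscle cells, differed by −0.64 and −0.83 in their brightest probe sets and did not pass. Another Cald1 probe set fell by 2.31 (adjusted p = 0.0302), and others of Lpp fell by 1.76 and 2.22 (adjusted p = 0.0497 and 0.0485). Myocd, the coactivator that drives smooth muscle genes, was too dim to be tested. It stood at 5.89, 5.31 and 5.25 against 7.59 and 7.27. Mylk2, also too dim to be tested, went the other way, at 7.26, 5.64 and 6.71 against 5.46 and 5.52. The summed signal of the 19 members on the array was 54814, 42674 and 55282 units in tumors 1, 2 and 7 and 221607 and 220703 in the normal arrays. Fewer myoepithelial cells and less of these RNAs per cell cannot be told apart in sorted bulk RNA. In the 17-array fit with the actin ratio 4 of the 17 still fell and all 17 stayed negative, while without either normal array 0 of the 17 passed. Without either normal array 0 genes passed in the basal identity, basement membrane, integrin, macrophage and fibroblast lists below as well.

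**Figure D2:**
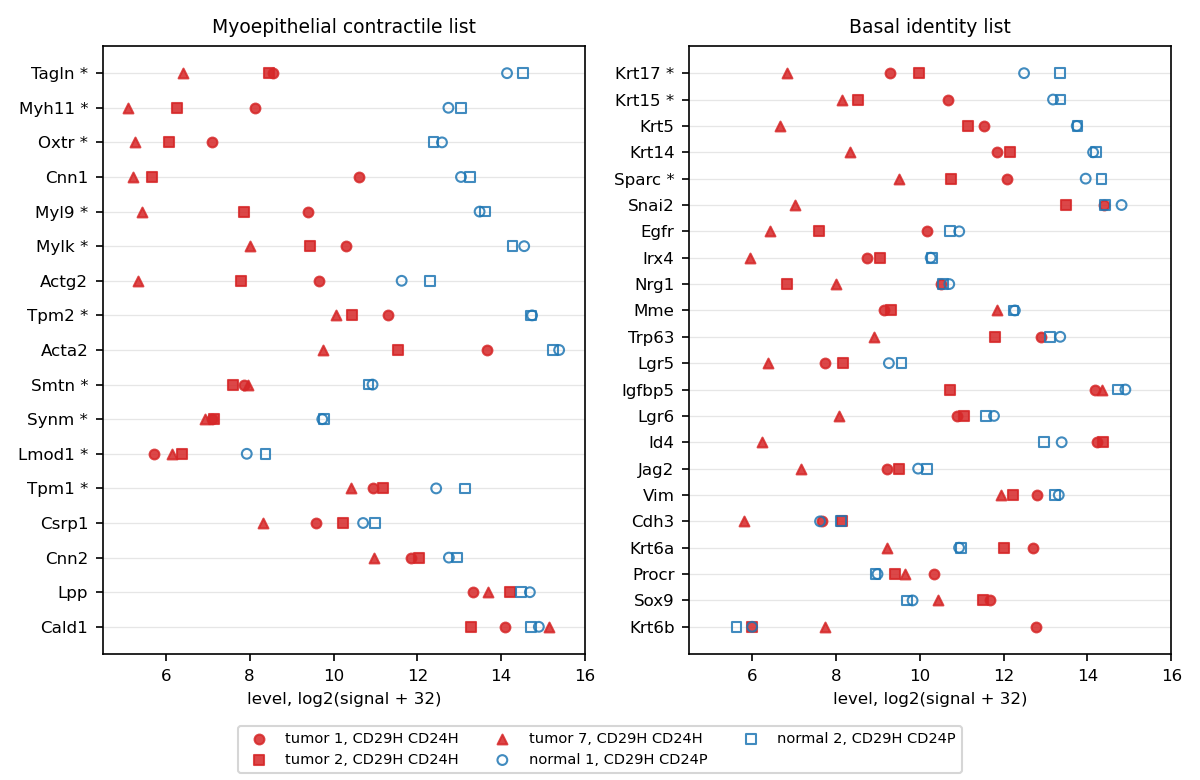
Level of each member of the contractile and basal identity lists on the 5 arrays (horizontal axis, log2(signal + 32)); red symbols are tumors 1, 2 and 7, open blue symbols normal preparations 1 and 2, and an asterisk marks genes that passed. The normal arrays lie close together at the right for Tagln, Myh11 and Oxtr, while tumor 7 (triangles) is lowest for most basal genes.

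Smooth muscle genes are known targets of serum response factor, which binds the CArG box, so the RefSeq promoter windows (GRCm38.p6, the 250 bases before each gene's start) of the contractile list were searched for it. The pattern is its own reverse complement, so a search of the printed strand covers both strands. Of the 14 list members with a window 2 held an exact box (14.3%), Myl9 and Cnn2, against 439 of all 27025 genes with a window (1.62%), 7 of 226 genes that fell (3.1%) and 1 of 200 that rose (0.5%). These are the windows of both, 5′ to 3′ with the box in capitals, Myl9 at chr2:156775214-156775463 and Cnn2 at chr10:79988350-79988599, both on the plus strand and upstream of the transcript.

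Myl9: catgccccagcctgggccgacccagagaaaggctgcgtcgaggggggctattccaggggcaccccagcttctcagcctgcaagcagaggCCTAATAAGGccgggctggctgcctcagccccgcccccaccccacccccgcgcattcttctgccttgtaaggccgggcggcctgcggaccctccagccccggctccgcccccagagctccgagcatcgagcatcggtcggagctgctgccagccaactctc

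Cnn2: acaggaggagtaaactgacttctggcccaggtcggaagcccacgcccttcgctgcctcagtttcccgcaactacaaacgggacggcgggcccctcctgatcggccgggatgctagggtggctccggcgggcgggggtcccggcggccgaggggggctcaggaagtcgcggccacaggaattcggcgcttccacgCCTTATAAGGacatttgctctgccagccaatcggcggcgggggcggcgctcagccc

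The box begins 161 bases before the start of Myl9, which fell, and 56 bases before that of Cnn2, a broadly expressed calponin, which stood at 11.85, 12.05 and 10.96 against 12.75 and 12.95 and did not pass (−1.23 ± 0.42, adjusted p = 0.133). A match is a description of the letters and no measurement of binding.

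Basement membrane and hemidesmosome genes shifted the same way. Of 19 tested, 5 fell (2.87% over all genes) and 0 rose, with a median of −1.59, and 18 were negative. Lama1, a laminin alpha chain, stood at 7.39, 7.27 and 6.25 in the tumor arrays and 11.54 and 11.55 in the normal ones, a difference of −4.58 ± 0.45 (adjusted p = 0.00736). Dst, the plakin that ties keratin filaments to hemidesmosomes, stood at 9.45, 8.45 and 9.48 against 13.11 and 12.92 (−3.89 ± 0.45, adjusted p = 0.00853). The chains of laminin 332, the main laminin under basal cells, changed too: Lama3 fell by 3.77 and Lamb3 fell by 2.84. Itga3, a subunit of the laminin receptor, fell by 2.57. Type IV collagen was bright in both groups, at 14.24, 13.94 and 12.55 for Col4a1 against 15.003 and 15.09 (−1.47 ± 0.49), and did not pass (adjusted p = 0.13). Col17a1, a hemidesmosome collagen, stood at 10.90, 12.83 and 6.46 against 12.89 and 12.90: tumor 2 was level with the normal arrays and tumor 7 far below. In the 17-array fit with the actin ratio 2 of the 19 fell.

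Integrin subunits and their adaptors, a list that includes Itgb1 itself and other beta chains, mostly had lower means in the tumor arrays. Of 20 tested, 2 fell (2.87% over all genes) and 0 rose. The median was −1.13 and 18 were negative, while 51.3% of all genes were positive. Parva, which links integrins to actin, stood at 8.01, 9.27 and 9.35 against 11.50 and 11.70 (−2.72 ± 0.50, adjusted p = 0.0304), and Itga3 was the other. The brightest members did not pass: Itgav differed by −0.67 ± 0.32 and the adaptor vinculin (Vcl) by −0.95 ± 0.46. Without tumor 7, 10 of the 20 fell, and in the 17-array fit with the actin ratio 0 passed.

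The basal identity list of 22 genes, all tested, had 3 that fell (2.87% over all genes) and 0 that rose. The median was −2.00, with 18 negative. Krt17 stood at 9.28, 9.98 and 6.84 against 12.49 and 13.35, a difference of −4.22 ± 0.90 (adjusted p = 0.0456). Krt15 stood at 10.68, 8.52 and 8.14 against 13.18 and 13.36 (−4.15 ± 0.75, adjusted p = 0.0287). The matrix protein Sparc was at 12.08, 10.75 and 9.51 against 13.96 and 14.33 (−3.36 ± 0.70, adjusted p = 0.0442). All tumor arrays lay below both normal ones in these genes. Krt5 and Krt14 were also below the normal arrays in every tumor, with differences of −3.97 ± 1.35 and −3.39 ± 1.07 that did not pass (adjusted p = 0.133 and 0.114). Without tumor 7 they were −2.41 and −2.17 and passed (adjusted p = 0.00675 and 0.00739). The transcription factors differed from tumor to tumor and from probe set to probe set. By its brightest probe set Snai2 stood at 14.40, 13.48 and 7.03 against 14.81 and 14.42, lowest in tumor 7. By the other it stood at 9.62, 9.34 and 5.71 against 12.23 and 11.70, with every tumor array over 2 log2 units below the lower normal array, and neither passed (adjusted p = 0.386 and 0.0974). Id4 stood at 14.24, 14.37 and 6.23 against 13.38 and 12.96, above the normal arrays in tumors 1 and 2 and far below them in tumor 7. Trp63 stood at 12.88, 11.79 and 8.92 against 13.35 and 13.10 by its brightest probe set (−2.03 ± 1.04, adjusted p = 0.278). A dimmer Trp63 probe set was low in all 3 tumors, at 7.17, 6.50 and 6.76 against 10.02 and 9.63, and passed (−3.02 ± 0.37, adjusted p = 0.00895). Without tumor 7, 8 of the 22 fell and 3 rose, Id4 by 1.13 (adjusted p = 0.0397). With the actin ratio in the 17-array fit 0 of the 22 passed.

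Several luminal transcription factors and receptors rose, while Gata3 fell and the luminal keratins did not pass. Of 24 tested members of the luminal list 7 rose and 1 fell, against 2.42% and 2.87% of all genes. The median was 1.36, with 18 positive. Ehf, an epithelial Ets factor, had the largest rise of all genes: it stood at 11.80, 11.91 and 12.08 in the tumor arrays and at 5.39 and 5.14, near a signal of 0, in the normal ones (6.66 ± 0.35, adjusted p = 0.00166). Further Ehf probe sets rose by 5.35 and 3.40. Elf5, the Ets factor that drives alveolar fate, stood at 10.42, 9.85 and 11.98 against 6.67 and 6.82 (4.004 ± 0.63, adjusted p = 0.0192), highest in tumor 7. Kit, a receptor kinase of luminal progenitors, stood at 11.46, 10.41 and 9.48 against 6.13 and 6.63 (4.07 ± 0.60, adjusted p = 0.0155). Foxa1, a pioneer factor for hormone receptors, stood at 12.16, 12.06 and 11.86 against 8.81 and 7.75 (3.74 ± 0.43, adjusted p = 0.00853). Its 3 tumor values lay close together, all above both normal ones. Prom1, the surface protein CD133, was at 12.90, 14.01 and 13.78 against 10.31 and 9.58 (3.62 ± 0.45, adjusted p = 0.00948). The tight junction genes Cldn7 and Cldn1 rose by 3.93 and 2.31.

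Gata3, needed to keep luminal cells differentiated, went the other way: 7.01, 6.08 and 7.40 in the tumor arrays against 10.54 and 10.60, a difference of −3.74 ± 0.46 (adjusted p = 0.00921). In these data Gata3 did not set the normal gates apart, with means of 10.57 in the basal and 10.47 in the luminal gate. The luminal keratins differed from tumor to tumor. Krt8 stood at 11.85, 10.89 and 15.40 against 14.35 and 14.20 and Krt19 at 6.47, 5.45 and 9.57 against 11.26 and 11.20, with tumor 7 above the normal arrays in Krt8 and below them in Krt19. Neither passed (−1.56 ± 1.18, adjusted p = 0.446, and −4.07 ± 1.09, adjusted p = 0.0807), nor did Krt18 (0.33 ± 0.68, adjusted p = 0.795). In the 17-array fit with the actin ratio 4 of the 24 rose, and without either normal array only 1 did.

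Caseins, the main milk proteins, were highest in tumor 7. The casein Csn2 stood at 10.29, 5.89 and 14.57 against 5.15 and 5.98, and Csn1s2a at 5.19, 5.31 and 13.71 against 5.27 and 5.28. Csn3 stood at 7.37, 7.66 and 15.49 against 12.82 and 12.73, bright in the normal arrays as well as in tumor 7. None of the 9 milk genes tested passed in limma (median −1.08, 4 positive, 1 at an unadjusted p below 0.05), and without tumor 7, 5 of them fell. Hormone-sensing genes were not changed past the threshold in limma either, 0 of 5 with 1 at an unadjusted p below 0.05. Pgr stood at 10.61, 11.10 and 6.57 against 10.60 and 9.92 and Esr1 at 8.82, 6.86 and 7.06 against 9.10 and 8.72.

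**Figure D3:**
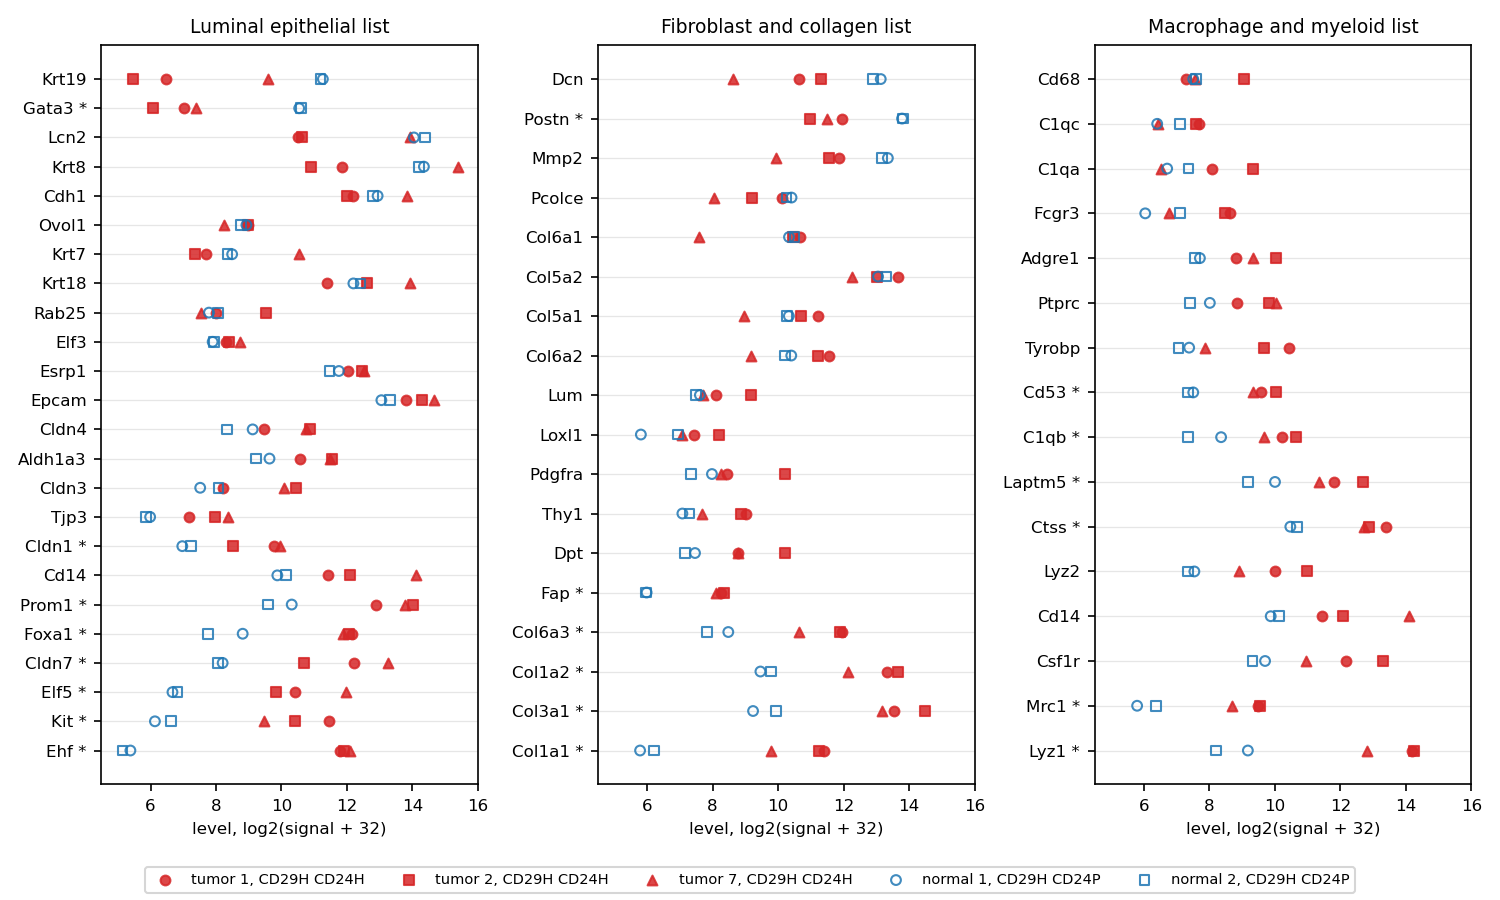
Level of each member of the luminal, fibroblast and macrophage lists on the 5 arrays (horizontal axis, log2(signal + 32)); red symbols are tumors, open blue symbols normal preparations, and an asterisk marks genes that passed. Ehf has the widest gap between the groups, Krt8 and Krt19 spread widely over the tumors, and all 16 macrophage genes have a higher mean in the tumor arrays.

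Markers of other cell types moved with the groups. All 16 tested macrophage and myeloid genes had positive differences (51.3% over all genes). Of them 6 rose (2.42% over all genes) and 0 fell, and the median was 2.27. Lyz1, a lysozyme, stood at 14.19, 14.26 and 12.80 against 9.18 and 8.20 (5.06 ± 0.56, adjusted p = 0.00853). The mannose receptor Mrc1 stood at 9.48, 9.54 and 8.68 against 5.79 and 6.38 (3.15 ± 0.43, adjusted p = 0.0123), and Ctss, C1qb and Cd53 rose by 2.43, 2.32 and 2.22. The last of the 6, Laptm5, is uncertain: its brightest probe set rose by 2.36, another fell by 3.46 (6.65, 8.01 and 7.10 against 11.46 and 9.98, adjusted p = 0.0233), and the other 3 differed by 0.48 to 1.18 and did not pass. The defining surface markers were less clear: Ptprc (CD45) stood at 8.85, 9.83 and 10.05 against 8.01 and 7.41 and did not pass (adjusted p = 0.0714), and Csf1r was at 12.18, 13.30 and 10.96 against 9.70 and 9.32 (adjusted p = 0.0698). Itgam (CD11b), Aif1 and Fcer1g were too dim to be tested, at most 7.69 on any of the 5 arrays. The summed signal of the 19 list members on the array was 40519 to 57967 units in the tumor arrays and 5539 to 6241 in the normal ones. These 19 include Cd14, which is in the luminal list too, at 11.44, 12.09 and 14.11 against 9.87 and 10.13. In the normal luminal gate Cd14 had a mean of 13.48. Several of the 15 largest rises are myeloid genes as well. Clec4d, a lectin of myeloid cells, stood at 10.42, 10.66 and 10.43 against 5.22 and 6.31 (4.74 ± 0.43). The membrane protein Ms4a6d stood at 11.003, 11.68 and 10.10 against 6.81 and 6.53 (4.26 ± 0.51). S100a8, a neutrophil calcium-binding protein, stood at 10.02, 9.24 and 11.92 against 6.10 and 5.38 (4.65 ± 0.77), and the arginase Arg1 at 9.47, 9.22 and 12.13 against 5.53 and 5.81 (4.60 ± 0.85), both highest in tumor 7. The chemokine Cxcl3 stood at 10.68, 11.18 and 9.69 against 5.91 and 6.18 (4.47 ± 0.50). All 5 passed, with adjusted p-values from 0.00507 to 0.0308. What share of these values comes from myeloid cells in the tumor gate was not tested. After the median shift 5 of the 16 rose, without tumor 7, 11 rose, and in the 17-array fit with the actin ratio 1 did.

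Chains of collagens I and III rose, and Postn, a matrix protein of activated fibroblasts, fell. Of 18 fibroblast and collagen genes tested 5 rose and 1 fell (median 0.98, 11 positive), against 2.42% and 2.87% of all genes. Col1a1 stood at 11.39, 11.25 and 9.80 against 5.78 and 6.21 (4.82 ± 0.55, adjusted p = 0.00853), and Col3a1 at 13.54, 14.48 and 13.18 against 9.23 and 9.93 (4.15 ± 0.48, adjusted p = 0.00853). Col1a2, Col6a3 and Fap, a fibroblast protease, rose by 3.41, 3.34 and 2.26. The fibrillar chains Col5a1 and Col5a2 differed by −0.02 and −0.20 and did not pass. Postn stood at 11.96, 10.96 and 11.48 against 13.78 and 13.82, a difference of −2.34 ± 0.38 (adjusted p = 0.0215), and Dcn, an abundant fibroblast proteoglycan, at 10.64, 11.31 and 8.63 against 13.13 and 12.89 without passing (−2.82 ± 0.75, adjusted p = 0.0799). The summed signal of the 18 genes was 27828 to 67305 units in the tumor arrays and 48885 to 49310 in the normal ones, ranges that overlap. A second Col1a1 probe set differed by 1.84 and did not pass, and in the 17-array fit with the actin ratio 1 of the 18 rose.

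Smaller lists of other cells had few measured genes. Fabp4 and Lpl, lipid-handling genes of adipocytes that macrophages also make, rose by 3.79 and 3.47, the only 2 of 8 adipocyte genes on the array bright enough to be tested; the defining adipocyte gene Adipoq was dim, at 6.43, 5.57 and 5.22 against 5.19 and 5.16. The pericyte gene Rgs5 rose by 2.84, 1 of 6, but did not pass after the median shift. Among 5 endothelial genes Flt1 rose by 2.30 and Cd34 fell by 2.18, and the defining Pecam1 was near a signal of 0 on all 5 arrays (5.09 to 5.48). Among 4 lymphocyte genes Ccl5 stood at 6.87, 5.998 and 6.73 against 11.38 and 10.31 (−4.31 ± 0.48, adjusted p = 0.00853), and Jchain at 6.64, 6.68 and 6.57 against 9.67 and 9.43 (−2.92 ± 0.33, adjusted p = 0.00853), both lower in the tumor arrays. The T cell genes Cd3e and Cd4 were too dim to be tested, at most 6.69 on any of the 5 arrays. No erythroid gene was bright enough to be tested, and the summed erythroid signal was 79.1 to 243 units in the tumor arrays and 23.1 to 36.6 in the normal ones. The part of these cells in the other results was not tested.

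Cell cycle genes had mostly higher means in the tumor arrays, but few passed. Of 24 mitosis genes 23 were positive (51.3% over all genes), with a median of 0.80. In limma 0 passed, with 9 at an unadjusted p below 0.05, against 2708 of all 10916 genes. Cdc20, the activator of the anaphase complex, stood at 13.47, 14.52 and 13.19 against 12.29 and 11.45 (1.85 ± 0.48, adjusted p = 0.0744), and the spindle checkpoint kinase Bub1b at 11.61, 11.68 and 10.46 against 9.70 and 9.08 (1.86 ± 0.50, adjusted p = 0.0807). By these probe sets every tumor array was above the normal ones in both genes. By another Cdc20 probe set tumor 7, at 10.63, was below normal array 1, at 10.91 (0.69, adjusted p = 0.473). Without tumor 7, 8 of the 24 rose. Among 27 replication genes 2 rose (2.42% over all genes), with a median of 0.53. Mcm2, a subunit of the replicative helicase, stood at 12.33, 12.32 and 12.24 against 10.38 and 10.28 (1.97 ± 0.33, adjusted p = 0.0222). Uhrf1, which brings DNA methyltransferase to new DNA, stood at 11.67, 12.25 and 10.90 against 9.46 and 9.23 (2.26 ± 0.48, adjusted p = 0.0454); a dimmer Uhrf1 probe set differed by −0.45 and did not pass. Uhrf1 was also the only 1 of 18 Polycomb and DNA methylation genes to pass, near the 5.29% of all genes that did. Of 23 DNA repair genes (median 0.72, 20 positive) only Brca1 passed, again near the 5.29% of all genes. It stood at 11.54, 10.31 and 10.58 against 8.58 and 8.62 (2.20 ± 0.46, adjusted p = 0.0454), and did not pass after the median shift (adjusted p = 0.0574). With the actin ratio in the 17-array fit 0 genes of these mitosis, replication and repair lists passed.

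In the list of G1 regulators and Myc genes 3 of 19 rose (2.42% over all genes) and 0 fell (median 0.43). Cdk6, a cyclin D kinase, stood at 13.12, 13.48 and 12.03 against 9.47 and 9.40 (3.44 ± 0.49, adjusted p = 0.0141). The inhibitors of such kinases rose beside it: Cdkn2b stood at 11.72, 11.33 and 11.89 against 8.99 and 9.02 (2.64 ± 0.37, adjusted p = 0.0132), and Cdkn1b at 10.73, 11.06 and 11.26 against 8.89 and 8.56 (2.29 ± 0.37, adjusted p = 0.0211). In all 3 the tumor arrays lay above both normal ones. Myc was lower in each tumor, at 11.07, 11.18 and 10.92 against 11.94 and 12.11, without passing (−0.97 ± 0.33, adjusted p = 0.137). Among 20 genes of the p53 response 1 rose and 0 fell (median 0.42), near the 5.29% of all genes that passed. That gene was Ddit4, an inhibitor of the mTOR complex that hypoxia and stress also induce, at 14.51, 13.87 and 13.10 against 9.88 and 9.13 (4.32 ± 0.50, adjusted p = 0.00853). Cdkn1a, the p53 target that stops the cycle, stood at 13.83, 13.12 and 12.08 against 12.88 and 12.93 by its brightest probe set (0.11 ± 0.51, adjusted p = 0.914). A dimmer Cdkn1a probe set was lower in every tumor, at 8.47, 10.79 and 7.18 against 11.14 and 11.39, without passing (−2.45, adjusted p = 0.165). Mdm2 differed by −0.49 ± 0.54 (adjusted p = 0.609).

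Few signalling genes passed, and over all genes 2.42% rose and 2.87% fell. Of 11 Notch genes 2 rose and 0 fell, both of them receptors: Notch2 stood at 12.76, 12.59 and 12.56 against 10.64 and 10.35 (2.14 ± 0.33, adjusted p = 0.018) and Notch1 at 11.70, 11.80 and 11.18 against 9.77 and 9.91 (1.72 ± 0.38, adjusted p = 0.0481), the latter not after the median shift (adjusted p = 0.0575). The ligand Dll1 and the target Hes1 differed by −2.06 ± 0.68 and 0.66 ± 0.51 and did not pass. Of 15 EGF and FGF genes 2 rose and 2 fell. The receptor Erbb3 stood at 13.25, 12.75 and 14.44 against 9.79 and 9.33 (3.92 ± 0.54, adjusted p = 0.0126), and the growth factor Fgf7 at 9.82, 8.57 and 9.58 against 5.40 and 6.07 (3.59 ± 0.49, adjusted p = 0.0123). The EGF receptor ligand epiregulin (Ereg) fell, from 12.99 and 12.74 in the normal arrays to 9.88, 8.92 and 10.24 in the tumor arrays (−3.19 ± 0.48, adjusted p = 0.0165), as did Fgf1 (−3.45). Met, the hepatocyte growth factor receptor, was very high in tumor 7 alone, at 12.55, 11.66 and 15.64 against 11.53 and 11.34.

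Of 17 TGF-beta genes 2 fell (2.87% over all genes) and 0 rose (median −1.001). They were the latent binding protein Ltbp2 (−3.24 ± 0.71, adjusted p = 0.0483) and the co-receptor Tgfbr3 (−2.46 ± 0.53, adjusted p = 0.0469). None of 21 Wnt genes passed in limma (median −0.53, 7 positive, 9 at an unadjusted p below 0.05); beta-catenin (Ctnnb1) stood at 15.81, 15.13 and 15.45 against 14.53 and 14.37 (1.01 ± 0.26, adjusted p = 0.0703) and the target Axin2 at 10.63, 9.54 and 7.54 against 9.26 and 9.16. Among 10 genes of epithelial to mesenchymal transition only fibronectin (Fn1) passed, at 12.42, 12.66 and 12.49 against 9.04 and 9.21 (3.40 ± 0.34, adjusted p = 0.0077). Vim, already bright in the normal basal gate, stood at 12.79, 12.23 and 11.94 against 13.32 and 13.22 and did not pass (−0.95 ± 0.36, adjusted p = 0.16), while another of its probe sets, at 11.76, 11.26 and 10.97 against 12.94 and 13.11, fell by 1.70 (adjusted p = 0.0485). Twist1 was higher in every tumor, at 11.38, 8.12 and 9.10 against 6.31 and 6.20, and did not pass (3.27 ± 0.87, adjusted p = 0.0793).

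Among 20 hypoxia and glycolysis genes 3 rose (2.42% over all genes) and 0 fell (median 0.40). Pdk1, a kinase that inhibits pyruvate dehydrogenase, stood at 11.13, 12.43 and 10.43 against 8.52 and 7.78 (3.18 ± 0.63, adjusted p = 0.038), and Bnip3 and Ndrg1, other hypoxia targets, rose by 2.02 and 1.62. Glycolytic enzymes did not pass, with Aldoa at −0.15 ± 0.36 and Ldha at −0.60 ± 0.35. Of 19 genes induced by tissue dissociation 0 passed in limma by the brightest probe set (median 0.25, 5 at an unadjusted p below 0.05). Fos stood at 15.04, 14.80 and 15.07 against 14.69 and 14.55. Further probe sets of Hspa1b and Hsp90aa1 passed, in opposite directions (1.13 and −1.30, adjusted p = 0.0326 and 0.0468). Of 12 interferon genes Rsad2 alone passed (3.17 ± 0.49, adjusted p = 0.0182), against 5.29% of all genes. The 5 MHC class II genes and 6 Hox genes tested gave 0 calls in limma, with medians of −0.93 and 1.53 and 1 gene each at an unadjusted p below 0.05. A dimmer probe set of Hoxa5 did pass, at 7.55, 8.94 and 8.99 against 5.79 and 5.28 (2.96, adjusted p = 0.0259). In the list of stem and progenitor surface genes 3 of 13 rose (2.42% over all genes), namely Kit, Prom1 and Cd24a. Cd24a is a sort marker whose rise the gates themselves ask for, and after the median shift 2 of the 13 rose. Cd44 (0.97 ± 0.33) and Aldh1a1 (−2.07 ± 1.24) did not pass. Aldh1a1 stood at 10.08, 9.33 and 5.49 against 10.52 and 10.22, low in tumor 7 alone.

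**Figure D4:**
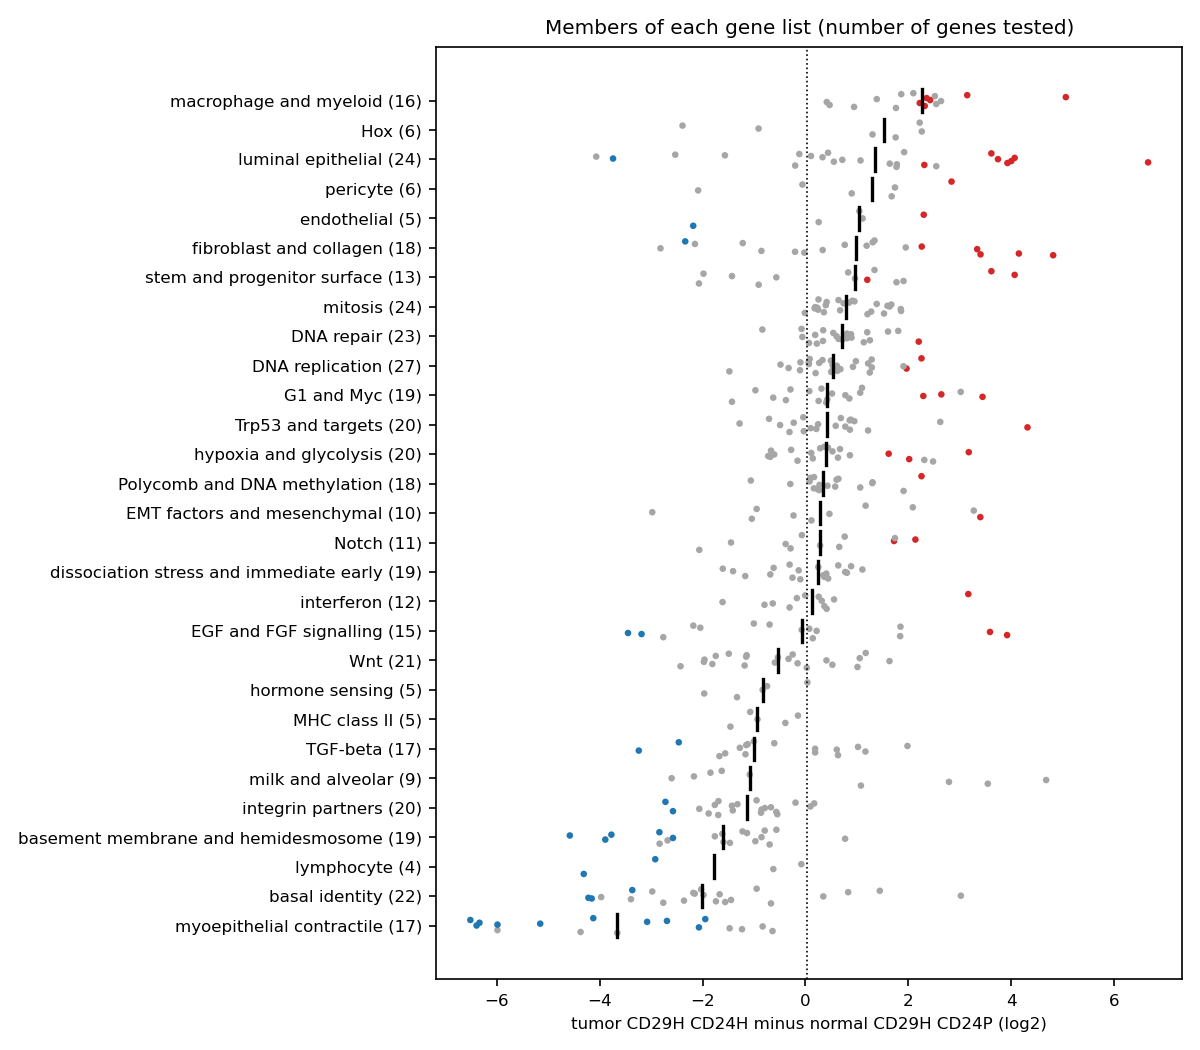
Difference of each tested member of the lists with at least 4 tested genes (horizontal axis, tumor minus normal, log2); red points rose, blue points fell, grey points did not pass, the black bar is the median of the list and the dotted line that of all genes (0.03). The contractile list lies farthest to the left, at −3.66, and the macrophage list farthest to the right, at 2.27.

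Many of the largest differences lay outside the lists. Tenm2, a teneurin adhesion protein best known at synapses, had the largest fall: it stood at 6.24, 5.08 and 5.99 in the tumor arrays, near a signal of 0, and at 14.34 and 13.94 in the normal ones (−8.37 ± 0.46, adjusted p = 0.00166). Another of its probe sets fell by 3.76, and the others were dim. The cytokine Il17b stood at 5.77, 5.19 and 5.18 against 11.95 and 12.57 (−6.88 ± 0.40, adjusted p = 0.00166). Reln, a secreted glycoprotein, stood at 8.85, 7.72 and 6.60 against 13.08 and 13.20 (−5.42 ± 0.64, adjusted p = 0.00872). The actin nucleator Fhod3 and the actin-binding Synpo2 stood at 7.96, 5.52 and 6.43 against 12.20 and 12.27 and at 6.77, 6.14 and 6.98 against 11.53 and 11.48. Serpinb11 stood at 10.12, 7.09 and 7.38 against 13.63 and 13.57 (−5.40 ± 0.88), highest in tumor 1. Further falls were those of Plekhb1 (−5.02), the fibrinogen chain Fgg (−5.02) and the sodium channel Scn7a (−4.82). These genes were picked among those without overlap between the groups, a trait that 47.7% of all genes tested shared.

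On the higher side, Tbx15, a T-box transcription factor of limb and skeletal development, stood at 10.31, 10.16 and 11.64 against 5.10 and 5.29 (5.51 ± 0.52, adjusted p = 0.00641). Hmga2, a chromatin protein of embryonic and tumor cells, stood at 12.04, 9.43 and 12.33 against 6.49 and 5.27 (5.39 ± 0.90, adjusted p = 0.0223). Tumor 2 had the least of it, and further Hmga2 probe sets rose by 3.95 and 2.84. Gab2, a docking protein of receptor kinases, stood at 10.72, 11.06 and 11.18 against 6.67 and 5.33 (4.99 ± 0.48, adjusted p = 0.00668), by 1 probe set; its others were dim. The ferritin receptor Scara5 and the transport protein Mal2 rose by 4.39 and 4.31. Ribosomal protein genes appear on both sides: Rpl27a stood at 14.31, 14.07 and 14.40 against 10.20 and 9.65 (4.34 ± 0.33) and Rps15 at 8.35, 9.53 and 9.08 against 13.58 and 14.09 (−4.85 ± 0.46). Both Rps15 probe sets fell. Of 43 ribosomal protein genes tested, a group chosen after these values were seen, 2 rose and 2 fell, with a median of −0.66. In the 17-array fit with the actin ratio 6 of the 15 largest rises passed (Ehf, Tbx15, Lyz1, Gab2, Clec4d and Cxcl3) and 10 of the 15 largest falls (Tenm2, Il17b, Tagln, Myh11, Oxtr, Fhod3, Reln, Fgg, Plekhb1 and Synpo2). Rps15 and Rpl27a did not, and their differences there were −0.76 and 1.79.

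Whether these differences are particular to the basal gate was tested against the luminal gate, the tumor CD29 low CD24 high cells against normal CD29 positive CD24 high cells (3 and 2 arrays). The test is of the basal-gate difference minus the luminal-gate difference. It passed for 250 of 10916 genes (2.29%), 91 higher (0.834%) and 159 lower (1.46%). With the tumor or normal preparation as a block it passed for 1512, since tumor arrays of a number come from the same tumor. The genes with the most negative values were high in the normal basal gate, which choosing by that value favours. Sparc differed by −3.36 in the basal gate and by 5.12 in the luminal gate, a difference of −8.48 ± 1.24 (adjusted p = 0.00953, blocked 1.58e-06). Krt15 gave −4.15 and 3.41 (−7.57 ± 1.22, adjusted p = 0.0136, blocked 4.91e-07), and the chemokine Cxcl14 gave −4.48 and 2.64 (−7.11 ± 0.69, adjusted p = 0.00116, blocked 4.91e-07). In these genes the group means of the tumor gates were close (10.78 and 11.82 for Sparc) while the normal gates were far apart (14.15 and 6.71). Myl9 gave −5.99 and 1.74 (−7.72 ± 1.52, adjusted p = 0.0287, blocked 5.16e-07). Tenm2 differed by −8.37 and −0.75 (−7.62 ± 0.73, adjusted p = 0.00116, blocked 4.91e-07).

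The most positive values were those of genes high in the normal luminal gate, which the choice favours likewise. Foxa1 differed by 3.74 in the basal gate and by −2.11 in the luminal gate (5.86 ± 0.56, adjusted p = 0.00116, blocked 7.75e-07), with means of 12.03 and 11.73 in the tumor gates and 8.28 and 13.84 in the normal ones. Upk3a, a uroplakin, gave −1.50 and −7.40 (5.90 ± 0.80, adjusted p = 0.00783, blocked 3.77e-05). Smim38, the hormone-like Stc2 and Tlcd4 gave 6.05 ± 0.73, 5.55 ± 0.90 and 5.45 ± 0.88 (adjusted p = 0.00396, 0.0136 and 0.0136). Ehf passed too: it was higher by 6.66 in the basal and 1.77 in the luminal gate (4.90 ± 0.49, adjusted p = 0.0014). For the next genes neither fit, blocked or not, called a difference between the gates. Tbx15 was higher by 5.51 and 4.87 (0.64 ± 0.78, adjusted p = 0.816), Hmga2 by 5.39 and 4.87 (0.52 ± 1.34, adjusted p = 0.933) and Ddit4 by 4.32 and 4.48 (−0.16 ± 0.65, adjusted p = 0.963). Lyz1 and Col1a1 gave 5.06 and 4.16, and 4.82 and 5.42 (0.90 ± 0.96 and −0.60 ± 1.28). The lower Gata3 was lower in both gates by its means, at −3.74 and −3.33 (−0.41 ± 0.83, adjusted p = 0.912). With standard errors of 0.65 to 1.34, these values do not show that the gates are alike. Leaving out 1 of the 4 normal arrays brought the 250 calls down to between 13 and 39.

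**Figure D5:**
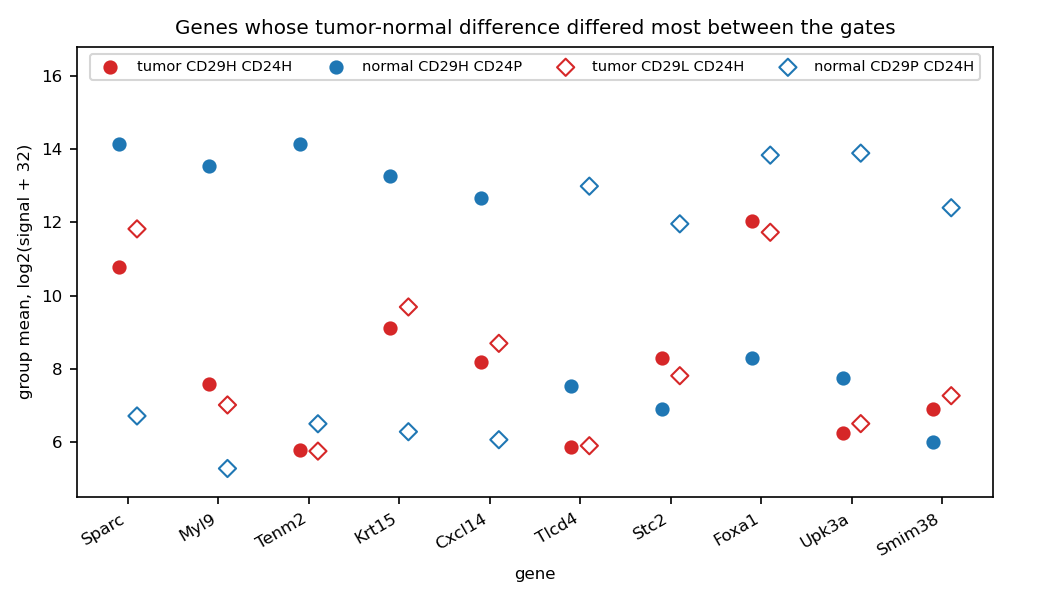
Group means (vertical axis, log2(signal + 32)) of the 10 genes whose tumor minus normal difference differed most between the gates, in the CD29 high gates (filled circles) and the luminal gates (open diamonds), red for tumors and blue for normal cells. The red symbols lie close together in each gene and the blue ones far apart, as for Sparc, at 14.15 and 6.71. The genes were chosen for this difference, so unequal gaps of the red and blue symbols follow from the choice.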

How the data were processed

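The deposited table holds 1 linear signal intensity for each of 45101 probe sets and 18 arrays. RNA was isolated with the PicoPure kit and amplified by the Affymetrix 2-cycle T7 method, per the labels' protocols. GCOS is named in the submitters' processing notes, with no version. The authors' intensities were used as deposited: the mean signal without the highest and lowest 2% of probe sets was 499.8 units on each array, and the medians of the 5 arrays ran from 73.7 to 93.5 units.

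Levels were computed as log2(intensity + 32), where the offset of 32 is a choice of this work. Of the probe sets, 64 are controls, 34945 had 1 gene symbol in GEO's platform annotation, 932 several and 9160 none. Each gene was read from its brightest probe set, and the lowest 40% of genes by mean level were left out, which left 10916 tested. Groups were compared with limma 3.58.1 in R 4.3.3 (lmFit and eBayes with an intensity trend, Benjamini-Hochberg threshold 0.05), unpaired, on the 5 arrays. The difference from the luminal gate was fitted on 10 arrays, and figures were drawn with matplotlib 3.10.9. The 3 tumor and 2 normal arrays limit the precision.

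Members and gene lists were chosen with earlier results of these data known. Named genes are Itgb1 and Cd24a, the 15 largest differences in each direction among genes that passed without overlap of the groups, in each list up to 4 genes per direction that passed and 4 that did not, brightest first, and the 5 largest that passed among differences from the luminal gate in each direction. The genes Aldh1a1, Aldoa, Axin2, Bub1b, C1qb, Cd53, Cldn1, Cnn1, Col17a1, Col5a1, Csn1s2a, Csn2, Fap, Foxa1 in the luminal list, Krt5, Krt14, Krt18, Krt19, Lmod1, Mdm2, Smtn, Synm, Tpm1, Tpm2, Trp63, Twist1 and Wfdc18 were added after their values were seen.

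The main comparison is unpaired, as tumors and normal preparations share only a number. The deviation correlations of same-numbered arrays were 0.0555 and 0.0679. With 2 normal arrays, whose deviations from their mean are opposite by construction, these values can hardly test pairing. In the difference between gates, arrays of 1 number come from the same tumor by their titles. Alternatives changed the offset, scaling, filter, probe set rule, intensity trend, block and arrays fitted. The fits with the actin ratio were chosen after seeing the data. The array of reference RNA was left out.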

Additional observations from a re-analysis of the deposited data

Results flagged for a closer look

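The 10 genes below stood out because their difference between tumor and normal cells was not the same in the 2 gates, by limma's test of that difference. Values are the basal-gate difference minus the luminal-gate difference, followed by the means of tumor and normal arrays, in log2(signal + 32).

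Sparc gave −8.48, with means of 10.78 and 14.15 in the CD29 high gates and 11.82 and 6.71 in the luminal gates. Myl9 gave −7.72 (7.57 and 13.55 in the CD29 high gates and 7.01 and 5.27 in the luminal gates). Tenm2 gave −7.62 (5.77 and 14.14 in the CD29 high gates and 5.74 and 6.49 in the luminal gates). For Krt15 the value was −7.57 (9.11 and 13.27 in the CD29 high gates and 9.69 and 6.27 in the luminal gates), and for Cxcl14 it was −7.11 (8.19 and 12.67 in the CD29 high gates and 8.69 and 6.06 in the luminal gates). In all 5 the normal basal gate was the highest of the 4 groups, which choosing the most negative values favours.

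Smim38 gave 6.05 (6.90 and 5.998 in the CD29 high gates and 7.26 and 12.40 in the luminal gates). Upk3a gave 5.90 (6.24 and 7.74 in the CD29 high gates and 6.50 and 13.90 in the luminal gates) and Foxa1 5.86 (12.03 and 8.28 in the CD29 high gates and 11.73 and 13.84 in the luminal gates). For Stc2 the value was 5.55 (8.30 and 6.90 in the CD29 high gates and 7.81 and 11.96 in the luminal gates), and for Tlcd4 it was 5.45 (5.87 and 7.52 in the CD29 high gates and 5.89 and 12.99 in the luminal gates). In all 5 the normal luminal gate was the highest of the 4 groups, which choosing the most positive values favours.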

How the results depend on the processing

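Both counts depend on the processing. Against 577 genes in the comparison of tumor and normal basal-gate cells, limma called 384 with no filter, 1027 with each probe set by itself, 1110 in a fit of all 17 sorted-cell arrays and 1306 with a random block by tumor or preparation. With the replicate block, which only tumors 1 and 2 and normal preparations 1 and 2 inform, it called 2417, the 577 among them. The actin ratio as a covariate left 0 on the 5 arrays and 100 on 17. Leaving out 1 array gave between 3 and 1462. Against 250 genes whose difference was not the same in the gates, limma called 130 with the lowest 60% left out and 397 with each probe set. It called 1512 with a fixed block by tumor or preparation and 981 with the random block. With the actin ratio on 10 arrays it called 59, and without 1 array between 13 and 293. Other offsets, quantile normalization, a median shift, the mean of the probe sets and no intensity trend kept both counts within 1.5 times. Among named genes the sign of Fgfr2 (−0.07) turned to 1.21 with the replicate block, and that of Id4 (−1.56) to 1.13 with the block while without 1 array it ran from −2.94 to 1.13. The cause of these shifts was not tested, apart from Id4's low value in tumor 7. With 2 normal arrays, a level in normal basal cells rests on 2 preparations whose animals the labels do not give.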
